A study of Mus musculus with 12 samples.

Results

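The jejunum of control mice was described from 6 of the 12 arrays of the study, the arrays whose titles name wild-type (WT) mice at day 6, 9 or 12, with 2 mice at each day. The labels call the time scale post-tamoxifen. Their protocols give tamoxifen in corn oil, injected into the abdomen at 75 mg/kg of body weight on each of 5 days in a row, as the means of inducible gene ablation. The other 6 arrays held the same days of mice with a knockout (KO) of Fgfr1op, a centrosome gene now named Cep43. The labels name neither the driver of the recombinase nor the deleted part of the gene. They leave unsaid if WT mice received the drug, carried the recombinase, shared litters with the KO mice or were of one sex, so time, drug and age cannot be told apart in a difference between days. All WT arrays came from whole tissue, with epithelium, muscle, immune cells and connective tissue together.

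The jejunum is the middle stretch of the small intestine, where most sugar, fat and amino acids are absorbed. Its villi are covered by absorptive enterocytes, while the crypts hold Lgr5-expressing stem cells, their dividing progeny and antimicrobial Paneth cells. The epithelium renews itself within days, and the wall also holds intraepithelial T cells, scattered lymphoid follicles rich in B cells, and layers of smooth muscle.

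Each array gave 1 deposited log2 signal for each of 19938 genes, from the probe set with the highest mean where a gene had several. WT array medians lay between 5.96 and 6.01. Signals of 1027 odorant receptor genes, most of them assumed to be silent in the gut, served as a reference for dim signals: their 95th percentile was 5.30 in WT, and 13867 genes had a WT mean above it. No fold is given where a day mean lay under that reference, and signals of different genes are not ranked because probe sets differ in brightness. Differences between days were tested with limma, and called at an adjusted p under 0.05 over all 19938 genes. With 2 mice a day, the smallest p of an exact permutation between days is 0.333.

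Most genes of absorptive enterocytes lay well above the dim reference, and several of them varied between mice. Sucrase-isomaltase (Sis), which splits sucrose at the brush border, had a log2 signal of 13.38 ± 0.15 (SD, n = 6), and lactase (Lct) 12.02 ± 0.31. The intestinal fatty acid binding protein Fabp2 stood at 13.45 ± 0.08, and Apob, the structural protein of chylomicrons, at 12.71 ± 0.14. The glucose transporter Slc5a1 read 12.75 ± 0.18 and the peptide transporter Slc15a1 12.70 ± 0.12. Of the 15 measured brush border enzymes, 14 lay above the dim reference; the exception was Tmprss15, the enteropeptidase that activates trypsinogen, at 3.65 ± 0.12. All 19 genes of fat uptake and chylomicron assembly and all 17 nutrient transporters lay above it. Over the 6 WT arrays, 4 transporters spanned more than 1 log2 unit (Slc34a2, Slc46a1, the sodium-proton exchanger Slc9a3 and the vitamin B12 receptor subunit Cubn), as did 1 brush border gene (Mep1a) and 1 fat uptake gene (Cd36), against 1.53% of all genes.

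Crypt genes varied less by the count over 1 log2 unit, but not by their typical range. The median range was 0.38 log2 units for stem cell genes and 0.31 for cell division genes. It was 0.34 for brush border, 0.295 for fat uptake and 0.49 for transporter genes. The stem cell receptor Lgr5 had a signal of 7.62 ± 0.09 (SD, n = 6), and Olfm4, a secreted stem cell product, 12.33 ± 0.19. Mki67, a marker of dividing cells, read 10.24 ± 0.17, and the replication helicase subunit Mcm5 8.19 ± 0.07. None of the 15 stem cell genes and none of the 19 cell division genes spanned more than 1 log2 unit. Among secretory cells, Lyz1 (Paneth lysozyme) stood at 13.65 ± 0.15, Muc2 (the main gut mucin) at 12.76 ± 0.15, Chga (a hormone granule protein) at 8.57 ± 0.10 and Dclk1 (a tuft cell kinase) at 6.84 ± 0.22. Retnlb, a goblet cell product, was dim at 3.73 ± 0.04.

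**Figure D1:**
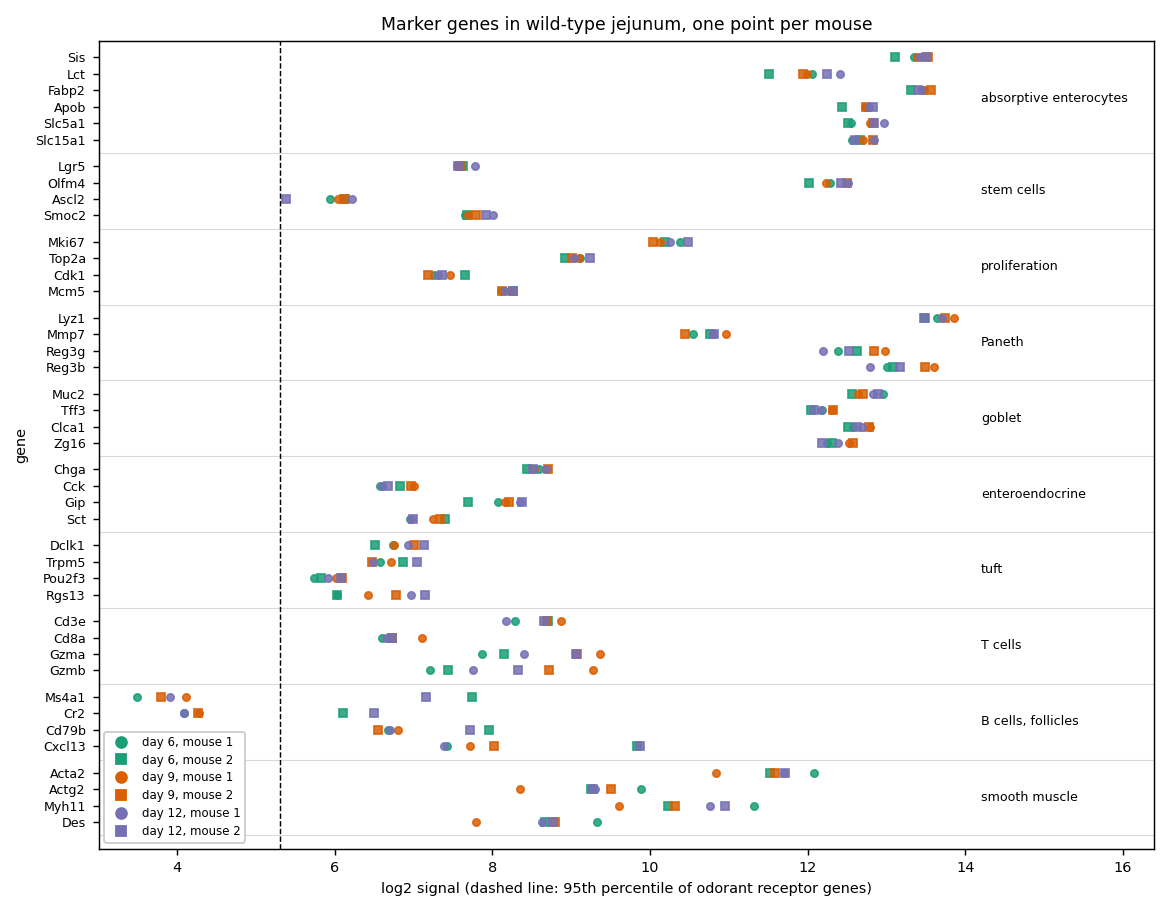
Log2 signals of marker genes of the jejunum in the 6 WT mice, 1 point per mouse (colour for the day, circle for mouse 1, square for mouse 2), with the dim reference of 5.30 as a dashed line. Most epithelial markers cluster tightly in each row, whereas the B cell and follicle genes split into 2 arrays with high and 4 with low signals, and smooth muscle genes are lowest in day 9 mouse 1.

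Markers of neighbouring tissue and of other blood cells were mixed. All 7 mesothelium genes and all 3 red cell genes lay above the dim reference, with the mesothelial factor Wt1 at 5.54 ± 0.11 (SD, n = 6) and the red cell enzyme Alas2 at 5.42 ± 0.18, close to it. Of 9 fat genes 5 lay above it and Adipoq, the defining hormone of fat cells, did not. Of 12 pancreas genes, 7 had a WT mean at or under the reference, among them Cpa1 (pancreatic carboxypeptidase) at 5.29 ± 0.05 (SD, n = 6). Colipase (Clps) at 10.57 ± 0.24 and Rnase1 at 8.98 ± 0.07 were the bright exceptions. Among 10 neutrophil genes 7 were dim, S100a8 among them at 4.18 ± 0.09, as were 9 of 12 mast cell and eosinophil genes, with the mast cell protease Mcpt1 at 4.56 ± 0.21. Gata4, a transcription factor of the proximal small intestine, stood at 10.15 ± 0.09, and Hoxb13, a factor of the distal colon, at 4.55 ± 0.09. By lists, 6 of 8 proximal gut genes, all 6 ileum genes and 2 of 5 colon genes lay above the reference, the latter being Car4 at 10.35 ± 0.27 and Car1 at 5.44 ± 0.10. The markers measured do not by themselves tell jejunum from ileum.

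Most genes hardly differed among the 6 WT mice. The median range from the lowest to the highest array was 0.30 log2 units over all genes, and 84.0% of the 13867 genes above the dim reference spanned less than 0.5. The genes with the smallest range among those with a mean signal above 10 were Sumo2 (a small ubiquitin-like modifier, 11.40 to 11.44), Hnrnpd (an RNA-binding protein), Pdia3 (a disulfide isomerase of the endoplasmic reticulum), Pkn2 (a protein kinase) and Ctsz (a lysosomal protease). At the other end, 306 genes spanned more than 1 and 45 more than 2 log2 units. Of those 45, Xist and Y-linked genes made up 4, members of the B cell and follicle list 6, and immunoglobulin genes or segments 7.

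Arrays of one day were only slightly more alike than arrays of different days. Pearson correlations across genes ran from 0.994 to 0.9965 for the 3 pairs of one day and from 0.9926 to 0.9957 for the 12 pairs of different days; genes are not independent replicates, so no test is given. Along the first principal component of the WT arrays, which held 31.5% of the variance, the day 9 arrays scored 19.8 and 11.2 and all others between -11.5 and -5.3. The second component, with 23.6%, placed day 6 at 9.9 and 14.9, day 9 at 0.4 and -2.5, and day 12 at -10.9 and -11.8. The third, with 20.5%, separated the day 6 mice from each other, at -16.6 and 13.6.

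**Figure D2:**
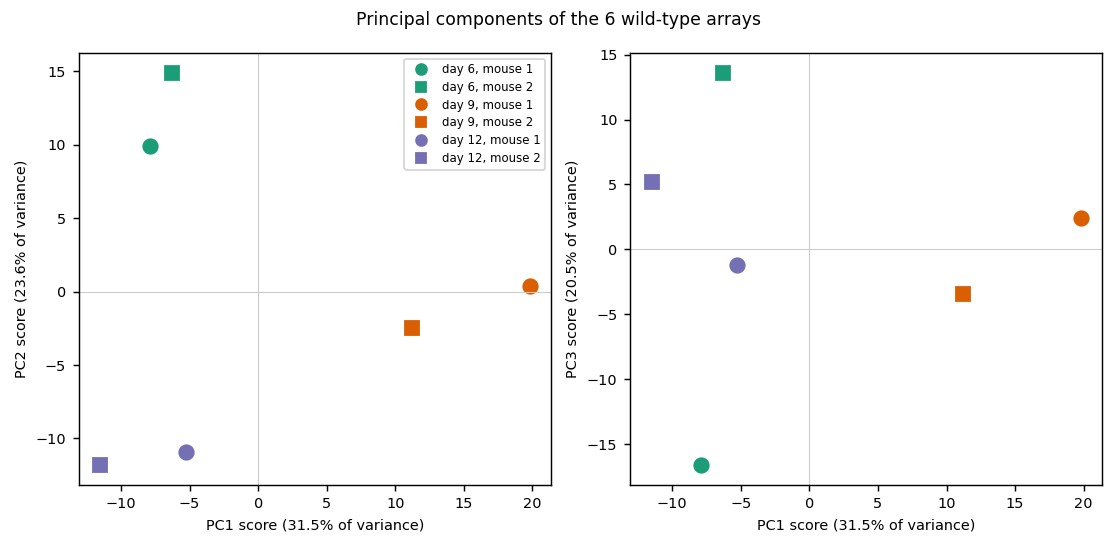
Scores of the 6 WT arrays on the first 3 principal components of all genes (colour for the day, circle for mouse 1, square for mouse 2), with the share of variance on each axis. The day 9 arrays lie to the right at 19.8 and 11.2, the second component orders the days, and the third separates the day 6 mice.

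Sex-linked genes split the WT mice, with Xist showing the largest difference between the mice of day 6. Xist, the RNA that coats the inactive X chromosome, had signals of 4.23 and 9.78 at day 6, 4.08 and 4.28 at day 9, and 9.92 in mouse 1 of day 12, with a day 12 mean of 9.96. The Y-linked translation factor gene Eif2s3y ran the other way, at 8.09 and 4.03, 8.76 and 8.54, and 3.87 and 3.91. The histone demethylase genes Kdm5d and Uty of the Y chromosome followed Eif2s3y in every mouse. Mouse 1 of day 6 and both day 9 mice were thus high in Y-linked genes, and mouse 2 of day 6 and both day 12 mice were high in Xist. In the KO mice the arrays of days 6 and 9 were Y-high and those of day 12 Xist-high. Day 12 and sex-linked signal therefore cannot be told apart in a comparison with day 9, whereas a comparison of day 9 with mouse 1 of day 6 stays among Y-high mice.

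B cell and follicle genes were the second set that split mice of one day. Ms4a1, the B cell surface protein CD20, read 3.48 and 7.74 at day 6, 4.11 and 3.80 at day 9, and 3.91 and 7.15 at day 12. Mouse 2 was the high one on both split days, and the day 9 mice were both low. Cxcl13, the chemokine that draws B cells into follicles, read 7.42 and 9.84, 7.72 and 8.02, and 7.38 and 9.88. That is a 5.34-fold difference between the day 6 mice and a 5.65-fold difference between the day 12 mice, against 1.24-fold at day 9. Cr2, a complement receptor of B cells and follicular dendritic cells, read 6.10 and 6.49 in the same high arrays and between 4.08 and 4.28 in the other 4. All 16 measured members were higher in mouse 2 than in mouse 1 on days 6 and 12. In these bulk samples more cells of a type and more RNA per cell cannot be told apart. Genes outside the list with the same pattern, picked after their values were seen, were Tnfrsf13c (the receptor for the B cell survival factor BAFF), at 9.02 and 9.08 in the high arrays and 7.02 to 7.31 in the others, and Btla, an inhibitory lymphocyte receptor, at 7.36 and 6.75 against 5.24 to 5.62.

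**Figure D3:**
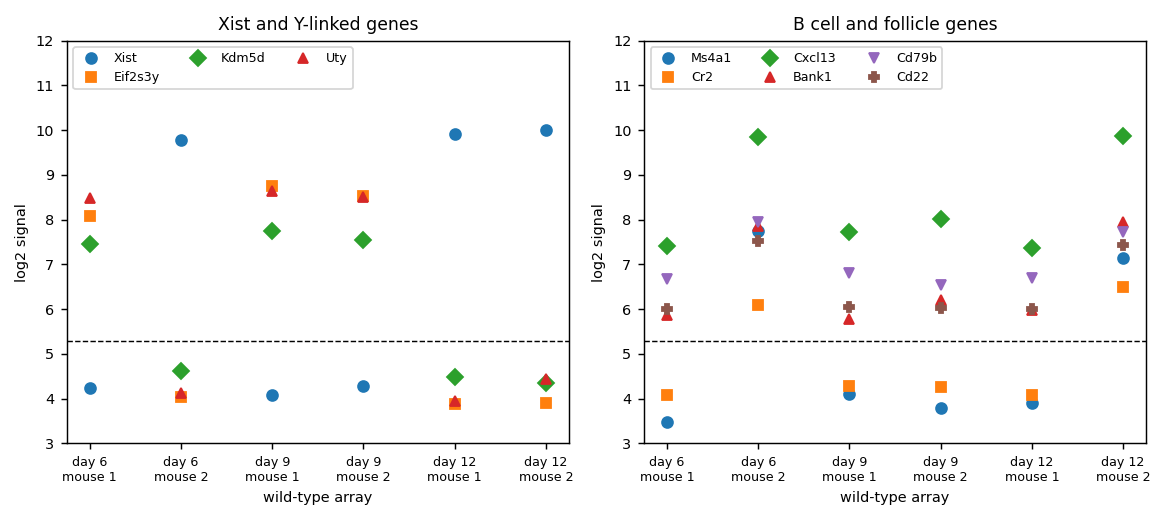
Log2 signals of Xist and 3 Y-linked genes (left) and of 6 B cell and follicle genes (right) in each WT mouse; the dashed line is the dim reference of 5.30. Xist and Y-linked genes exclude each other in every mouse, and the follicle genes are high in mouse 2 of day 6 and mouse 2 of day 12.

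Antibody light chain segments varied from mouse to mouse. Igkv4-55 read 9.86 and 7.03 at day 6, 8.31 and 7.87 at day 9, and 7.54 and 9.31 at day 12. Mouse 1 was the higher one at day 6 and mouse 2 at day 12. Igkv6-20, picked after its values were seen, read 9.80 and 10.17, 7.47 and 8.04, and 8.93 and 9.23, with the day 9 mice lowest. Each B cell clone uses 1 variable segment per chain, and segments resemble one another, so signals of single segments are uncertain. Plasma cell genes were steadier: none of 10 spanned more than 1 log2 unit, and Jchain, which joins secreted antibody units, ran from 10.93 to 11.60.

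Smooth muscle genes formed another block. Myh11, the smooth muscle myosin heavy chain, read 11.31 and 10.22 at day 6, 9.61 and 10.31 at day 9, and 10.76 and 10.95 at day 12, and desmin (Des) 9.33 and 8.66, 7.79 and 8.79, and 8.63 and 8.77. Mouse 1 was the highest array at day 6 and the lowest at day 9. The mean of the 17 list members, relative to their mean over WT mice, was 0.61 in mouse 1 of day 6, -0.75 in mouse 1 of day 9, and between -0.09 and 0.19 elsewhere. All 17 were higher in mouse 1 than in mouse 2 at day 6 and lower at day 9, and 14 had both day 12 arrays above both day 9 arrays, against 19.9% of all genes, with 0 calls. Snap25, a synaptic protein of enteric neurons picked after its values were seen, had its extremes in the same arrays (8.09 and 6.76). The mean of the 14 measured enteric neuron, glia and interstitial cell genes followed this pattern only in part. It was 0.149 and -0.135 at day 6 and -0.133 and 0.03 at day 9, so mouse 2 of day 6 was as low as mouse 1 of day 9. Of these genes 12 were higher in mouse 1 at day 6 and 4 at day 9. The split was not particular to smooth muscle. Of 13 fibroblast genes, 13 were higher in mouse 1 at day 6 and 1 at day 9. Of 12 endothelium genes, 10 and 0 were. Among all 19938 genes, 10191 were higher in mouse 1 at day 6 and 10313 at day 9.

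**Figure D4:**
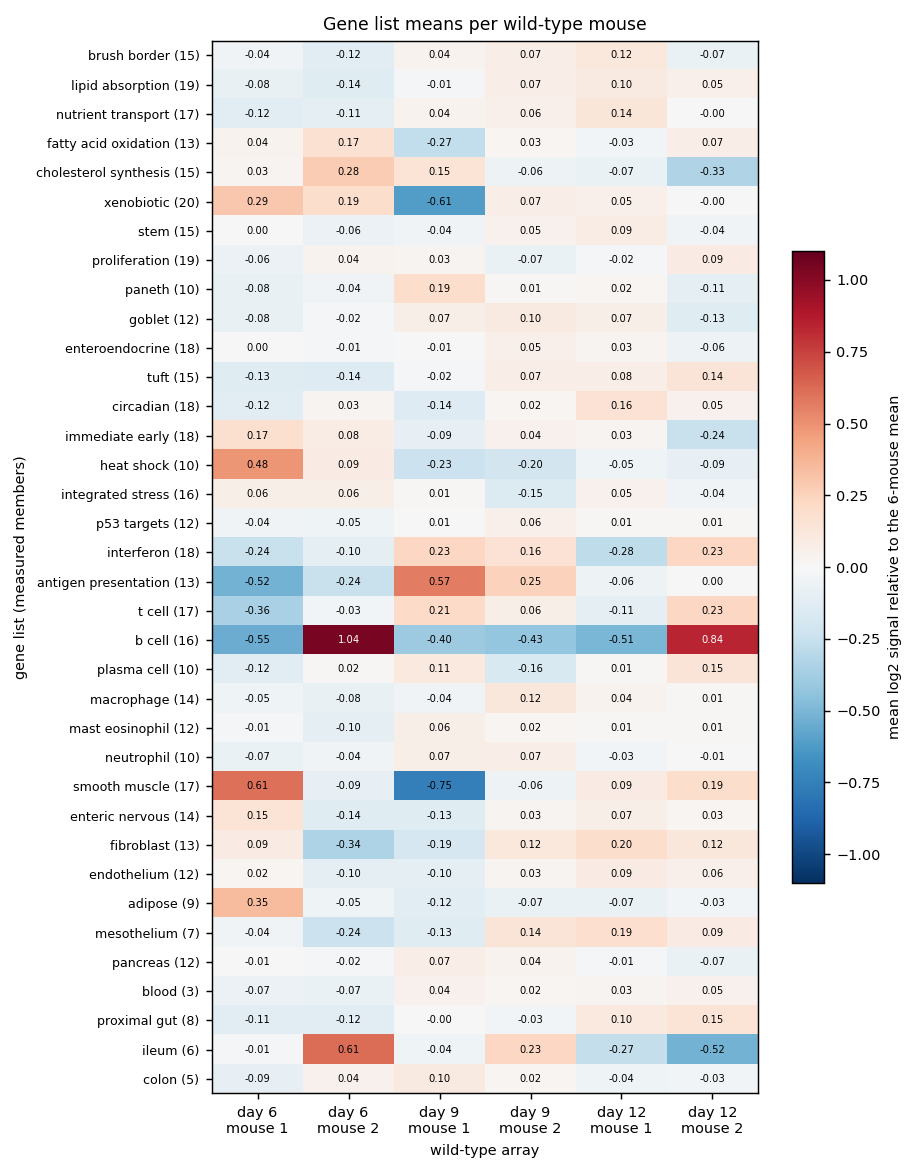
Mean log2 signal of each gene list in each WT mouse, relative to the mean over the 6 WT mice (number of measured members in brackets; red higher, blue lower). Sex-linked genes are not drawn; among the lists drawn, the strongest cells are the B cell list in mouse 2 of days 6 and 12 (1.04 and 0.84) and smooth muscle in mouse 1 of day 9 (-0.75), while stem cell, division and secretory lists stay within 0.2 of zero.

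Some genes stood apart in a single mouse. Plb1, a phospholipase of the brush border, read 11.40 and 11.60, 11.80 and 11.81, and 11.24 and 7.71, an 11.53-fold difference between the day 12 mice. Its KO signals were 9.86 and 9.59 at day 6, 7.75 and 7.60 at day 9, and 7.46 and 7.30 at day 12, so mouse 2 of day 12 read like a late KO mouse for Plb1. It did not for the phosphate transporter Slc34a2, at 10.05 in that mouse and 4.79 to 5.09 in the late KO mice. Fam151a, picked after its values were seen, was low in the same mouse (6.93 against 8.68 to 8.87). Adck1, a mitochondrial kinase-like protein, read 5.64 in mouse 1 of day 12 and 8.13 to 9.37 elsewhere. B3galt5, a galactosyltransferase that builds glycan chains, read 7.32 in mouse 1 of day 9 and 5.12 to 6.06 elsewhere. The heavy chain gene Ighg3 read 7.78 and 5.22 at day 9. Rab30, a Golgi GTPase, and Akr1c19, an aldo-keto reductase, were lowest in mouse 1 of day 9, at 7.21 and 6.64, against 8.73 and 8.07 in its day 9 partner.

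Mouse 1 of day 9 also differed from its partner in a pair of neighbouring microRNA genes, which were picked after their values were seen. Mir215 read 6.96 and 7.54 at day 6, 8.78 and 6.52 at day 9, and 7.49 and 7.66 at day 12, and Mir194-1 read 8.50 and 8.98, 9.82 and 7.95, and 9.18 and 9.25. Both had their highest array in mouse 1 and their lowest in mouse 2 of day 9. The related pair on chromosome 19 differed less between these mice, at 7.48 and 6.90 for Mir192 and 7.83 and 7.74 for Mir194-2. The mature products are shown because they link the pairs. Seeds (bases 2 to 8) are in capitals, sequences run 5′ to 3′ and come from RefSeq (GRCm38.p6), and miR-215-5p and miR-192-5p share the seed UGACCUA.
miR-215-5p, chr1:185313610-185313630, plus strand: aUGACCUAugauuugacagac
miR-192-5p, chr19:6264857-6264877, plus strand: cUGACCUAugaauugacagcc
miR-194-5p, chr1:185313325-185313346, plus strand: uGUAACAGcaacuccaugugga
The mature miR-194-5p is also encoded at chr19:6264658-6264679, with the same sequence, so the deposited signals are those of probe sets named for the genes and were not read as amounts of the mature RNAs.

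Over the 3 days, few genes passed the test in WT. The F test over days called 4 genes (0.0201% of those tested; 2003 at an unadjusted p under 0.05): Slc10a2 (adjusted p = 0.0184) and Saa1, Pim1 and Dio1 (each 0.0465). From day 6 to day 9, 12 genes were called (0.0602%), 8 higher and 4 lower. Between days 9 and 12 limma called 0 genes (0%), with 1783 at an unadjusted p under 0.05, and between days 6 and 12 it called 1 (0.00502%). At an unadjusted p under 0.05, 6.61% of genes were higher and 2.87% lower at day 9 than at day 6, 3.72% higher and 5.22% lower at day 12 than at day 9, and 4.77% higher and 3.41% lower at day 12 than at day 6. The median standard error of a difference was 0.115 log2 units.

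These counts rested on single arrays, and the genes called in another fit were not always those of the full fit. Of the counts between days 6 and 9, 12 in the full fit, the value was 6 when WT mouse 1 of day 6 was left out, 2 for WT mouse 2 of day 6, 1 for WT mouse 1 of day 9, 3 for each KO mouse of day 9, 18 for each KO mouse of day 6, and 0 for each WT mouse of day 12, which enters through the shared spread alone. They were 0 with the smooth muscle mean as a covariate and 2 with the mean of Y-linked genes. Only WT day 6 mixed a Y-high and an Xist-high mouse, so the slope on the Y-linked mean came almost wholly from that pair. A call lost in that fit therefore cannot tell sex-linked signal from lost precision. This limit holds wherever that covariate is used below. The F test, with 4 calls in full, gave 8 on leaving out each WT mouse of day 6, 2 for each KO mouse of day 6, 0 for each KO mouse of day 9 and 1 for WT mouse 2 of day 12. Between days 9 and 12 the count was 5 on leaving out each WT mouse of day 6, 4 for WT mouse 1 of day 12, and 1 for WT mouse 2 of day 12, each WT mouse of day 9 and each KO mouse of day 12. Between days 6 and 12, with 1 call in full, it was 3 for WT mouse 1 of day 6, 8 for WT mouse 2 of day 6, 5 for WT mouse 1 of day 12, and 2 for each KO mouse of days 6 and 12 and each WT mouse of day 9. Every named gene kept its direction in each of these fits, but calls did not hold: of the 12 fits that left out an array, Pim1 kept its day 9 call in 7, Dio1 in 6, Saa1 in 5 and Phlda2 in 0, and the other genes called lay between.

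Ido1, the enzyme that degrades tryptophan and is induced by interferon gamma, had the largest difference among the genes called higher from day 6 to day 9. It read 8.04 and 7.76 at day 6, 10.29 and 9.92 at day 9, and 8.52 and 8.35 at day 12. Both day 9 mice lay above all other WT mice. The rise from day 6 to day 9 was 4.62-fold (log2 2.21, SE 0.31, adjusted p = 0.0429), and between 2.02 and 2.39 on the log2 scale when 1 array was left out. Both the Y-high and the Xist-high mouse of day 6 lay below the day 9 mice, which were Y-high. The call was lost with the Y-linked mean as a covariate (log2 1.99, adjusted p = 0.214), with the smooth muscle mean (log2 2.26, adjusted p = 0.15), with the replicate block (0.0513), with a trend and robust prior (0.0978), and in all but 4 of the 12 fits that left out an array (adjusted p up to 0.406).

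Among antigen presentation genes, H2-Aa and H2-DMa rose from day 6 to day 9. The genes of this list build the MHC class II molecules that show peptides to helper T cells, load them, and cut and transport peptides for class I. H2-Aa, a class II alpha chain, read 9.60 and 10.15 at day 6, 11.42 and 10.99 at day 9, and 10.56 and 10.48 at day 12. It rose 2.52-fold from day 6 to day 9 (log2 1.33, SE 0.19, adjusted p = 0.0463). H2-DMa, which loads peptide onto class II, read 7.07 and 7.49, 8.86 and 8.32, and 7.70 and 7.72, a 2.47-fold rise (log2 1.31, SE 0.18, adjusted p = 0.0429). For both genes the day 12 mice lay between the other days without overlap. With the smooth muscle mean as a covariate neither was called (H2-Aa log2 1.12, adjusted p = 0.193; H2-DMa log2 1.11, adjusted p = 0.175), nor with the Y-linked mean (log2 1.61 and 1.51, adjusted p = 0.0917 and 0.109) or the replicate block (0.0659 and 0.0639). Leaving out 1 array kept the call of H2-Aa in 2 of 12 fits and that of H2-DMa in 3.

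Of the 13 measured members of this list, 2 were called higher from day 6 to day 9 and none lower, against 0.0401% of all genes called higher. The median difference was 0.93, against 0.02 over all genes, and 11 members had both day 9 arrays above both day 6 arrays, against 26.9% of all genes, while 1 had both below. The list mean was -0.52 in mouse 1 of day 6 and 0.57 in mouse 1 of day 9, the arrays where the smooth muscle mean was highest (0.61) and lowest (-0.75). From day 9 to day 12, 12 members had both later arrays below both earlier ones, against 27.3% of all genes, with a median difference of -0.48 and 0 calls. The day 9 median was 0.67 without mouse 1 of day 9, 1.18 without mouse 2 of day 9 and 0.73 without mouse 1 of day 6. Uncalled members included the class II beta chain gene H2-Ab1, at 10.62 and 11.10, 12.24 and 11.86, and 11.62 and 11.48 (adjusted p = 0.119), and Cd74, the invariant chain, at 11.78 and 12.01, 12.76 and 12.51, and 12.34 and 12.34 (adjusted p = 0.0941). H2-Eb1, Psmb8, Psmb9 and Tap1 had day 9 differences of 1.15, 1.23, 0.97 and 0.93. Ciita, the master regulator of class II genes, differed by 0.22 (adjusted p = 0.793), with 6.32 and 7.03 at day 6 and 7.07 and 6.71 at day 9, and Nlrc5, its class I counterpart, by -0.07. B cells also carry class II. The B cell list mean was -0.55 and 1.04 at day 6, -0.40 and -0.43 at day 9, and -0.51 and 0.84 at day 12, and its part in the class II values was not tested apart from the covariate fit, in which H2-Aa and H2-DMa differed by 1.44 and 1.42 (adjusted p = 0.0442 and 0.0418).

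Because these members were high together, their promoters were searched on both strands for TGATTGG, the inverted CCAAT box found in class II promoters; the motif was chosen after the values were seen. Of the 13 members, 8 had a promoter in the RefSeq table (250 bases before to 50 after the start site, GRCm38.p6), and 4 of these held the motif: H2-Aa, H2-Eb1, Psmb9 and Tap1. It was present in 7.82% of all 32851 promoters, and 9% of the 27025 genes with a promoter held it in at least 1. Psmb9 and Tap1 are divergent neighbours whose windows overlap, so they share 1 copy. The 150 bases before the start site are given 5′ to 3′ on the strand of the gene, with the motif in capitals; its first base lay at -50 in H2-Aa, -61 in H2-Eb1 and -10 in Psmb9. H2-DMa, which was called, did not hold these letters in its window, and a match is not evidence of binding.
H2-Aa, chr17:34287824-34287973, minus strand: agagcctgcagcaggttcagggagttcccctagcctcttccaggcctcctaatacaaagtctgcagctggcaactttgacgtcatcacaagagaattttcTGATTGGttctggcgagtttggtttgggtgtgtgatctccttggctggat
H2-Eb1, chr17:34305717-34305866, plus strand: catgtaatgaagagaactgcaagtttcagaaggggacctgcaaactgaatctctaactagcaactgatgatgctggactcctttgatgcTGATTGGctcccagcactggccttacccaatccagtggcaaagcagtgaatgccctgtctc
Psmb9, chr17:34187331-34187480, minus strand: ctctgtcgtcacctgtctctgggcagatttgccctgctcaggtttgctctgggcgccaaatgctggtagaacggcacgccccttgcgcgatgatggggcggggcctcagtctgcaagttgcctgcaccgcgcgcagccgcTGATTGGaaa

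Granzyme B (Gzmb), a protease of cytotoxic lymphocytes, read 7.21 and 7.43 at day 6, 9.28 and 8.71 at day 9, and 7.75 and 8.32 at day 12. Both day 9 arrays lay above all others. Its range of 2.07 log2 units was wide for the T cell list, where the median range was 0.68. Of 17 T cell genes, 8 had both day 9 arrays above both day 6 arrays, against 26.9% of all genes. The median difference was 0.25, with 0 calls. The T cell list mean was 0.21 and 0.06 at day 9, and highest in mouse 2 of day 12, at 0.23. Of 18 interferon-stimulated genes, 14 had both day 9 arrays above both day 6 arrays (26.9% of all genes did), with a median difference of 0.27 and 0 calls. Ifit1, an antiviral RNA-binding protein, read 7.52 and 7.43, 8.36 and 7.90, and 7.31 and 8.32, so that mouse 2 of day 12 lay between the day 9 mice and mouse 1 of day 12 was the lowest. The interferon list mean was -0.24 and -0.10 at day 6, 0.23 and 0.16 at day 9, and -0.28 and 0.23 at day 12, so mouse 2 of day 12 was as high as the day 9 mice. Picked after their values were seen, the chemokine Cxcl9 read 7.21 and 7.29, 8.58 and 8.23, and 7.32 and 7.94, and Nos2, which makes nitric oxide, read 9.04 and 8.89, 10.89 and 10.17, and 10.43 and 9.01.

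**Figure D5:**
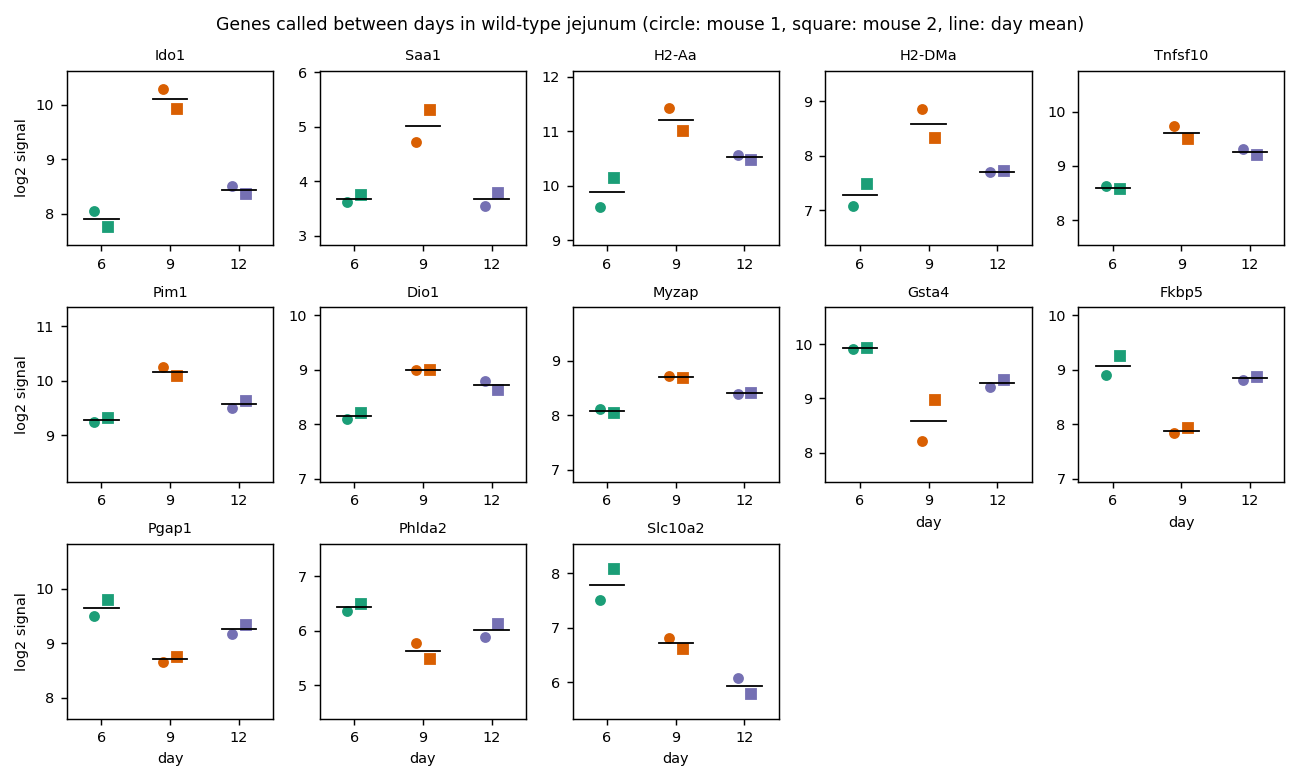
Log2 signals of the 13 genes called in a comparison of WT days (circle for mouse 1, square for mouse 2, line for the mean of the day). In the 8 genes from Ido1 to Myzap both day 9 mice lie above both day 6 mice, Gsta4, Fkbp5, Pgap1 and Phlda2 run the other way, and Slc10a2 is lowest at day 12.

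Further genes rose from day 6 to day 9. Tnfsf10, the death ligand TRAIL, read 8.63 and 8.57, 9.73 and 9.49, and 9.30 and 9.20, a 2.02-fold rise (adjusted p = 0.0429). The kinase Pim1 read 9.24 and 9.31, 10.25 and 10.08, and 9.51 and 9.63, a 1.85-fold rise (adjusted p = 0.0279). Dio1, a deiodinase that activates thyroid hormone, read 8.09 and 8.21, 8.99 and 8.99, and 8.79 and 8.64 (1.79-fold, adjusted p = 0.0279). Its day 12 mice stayed above the day 6 mice. Myzap, a cell junction protein, read 8.11 and 8.05, 8.71 and 8.69, and 8.39 and 8.41 (1.54-fold, adjusted p = 0.0429). Saa1, an acute-phase apolipoprotein, was called (log2 1.33, SE 0.17, adjusted p = 0.0429), but its signals of 3.61 and 3.75, 4.72 and 5.31, and 3.55 and 3.79 have all 3 day means under the dim reference. For Pim1, Tnfsf10 and Myzap the day 12 mice lay between the day 6 and day 9 mice.

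Genes that fell from day 6 to day 9 began with Gsta4, a glutathione transferase that clears aldehydes of lipid peroxidation. It read 9.91 and 9.93 at day 6, 8.21 and 8.98 at day 9, and 9.22 and 9.35 at day 12, a 2.51-fold drop (adjusted p = 0.0497). The day 9 mice were the lowest and differed from each other. Fkbp5, a co-chaperone induced by glucocorticoids, read 8.91 and 9.26, 7.84 and 7.93, and 8.82 and 8.87, a 2.29-fold drop (adjusted p = 0.0429) and both day 12 mice lay just under the day 6 mice. Pgap1, which trims the lipid anchor of membrane proteins, read 9.50 and 9.79, 8.65 and 8.76, and 9.18 and 9.34 (1.92-fold, adjusted p = 0.0497). Phlda2, an imprinted growth-restraining gene, read 6.36 and 6.49, 5.77 and 5.48, and 5.89 and 6.13 (1.74-fold, adjusted p = 0.0497).

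Drug metabolism genes around Gsta4 were low mainly in mouse 1 of day 9. Of 20 measured members, 1 was called lower (Gsta4), and 11 had both day 9 arrays below both day 6 arrays, against 16.7% of all genes. Gstm1, another glutathione transferase, read 10.84 and 11.04, 9.29 and 10.39, and 10.62 and 10.69, and the drug efflux pump Abcb1a 12.26 and 12.25, 11.12 and 12.11, and 12.45 and 12.34. In both, mouse 1 of day 9 stood far below every other mouse. Cyp2c29 was an exception, at 7.85 and 7.91, 5.14 and 5.79, and 6.34 and 5.46, with all later mice low (day 9 minus day 6 adjusted p = 0.105). The list mean was -0.61 in mouse 1 and 0.07 in mouse 2 of day 9. The smooth muscle mean was lowest in that same mouse. With that mean as a covariate, Gsta4 differed by log2 -1.11 from day 6 to day 9 and was not called (adjusted p = 0.24). The part of smooth muscle in the other members was not tested.

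Slc10a2 was the gene called from day 6 to day 12. It encodes the apical transporter that takes up bile acids, a hallmark of the ileum, the stretch beyond the jejunum. Its signals were 7.51 and 8.08 at day 6, 6.82 and 6.62 at day 9, and 6.08 and 5.79 at day 12, so the 3 days did not overlap. The fall from day 6 to day 12 was 3.63-fold (log2 -1.86, SE 0.17, adjusted p = 0.00463), and the size was 1.58 to 2.14 on the log2 scale when 1 array was left out. The call was lost without mouse 2 of day 12 and in a fit of the WT arrays alone, with a highest adjusted p of 0.101. With the replicate number as a block the gene was called between days 6 and 12, but not in the F test.

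Other ileal genes were mixed. Of the 6 measured, 4 had both day 12 arrays below both day 9 arrays (27.3% of all genes), with a median difference of -0.43, and 1 was called between days 6 and 12 (Slc10a2). Fabp6, the ileal bile acid binding protein, read 5.79 and 9.02, 6.02 and 7.23, and 5.57 and 4.99. That is a 9.41-fold difference between the day 6 mice and 2.31-fold between the day 9 mice, with mouse 2 the high one on both days, and both day 12 mice lay below every earlier mouse. The bile acid exporter subunits Slc51a and Slc51b stood at 10.41 ± 0.10 and 11.58 ± 0.07 (SD, n = 6), and Fgf15, the hormone that ileal enterocytes release in response to bile acids, stood at 5.64 ± 0.21. The position along the gut at which each piece was taken is not stated in the labels, and its part in these values was not tested.

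The genes with the smallest p between days 9 and 12, none of them called, included Slc34a2, the sodium-phosphate transporter of the brush border. It read 11.13 and 10.87 at day 6, 11.94 and 11.53 at day 9, and 10.45 and 10.05 at day 12 (day 12 minus day 9 log2 -1.48, SE 0.20, adjusted p = 0.0972). Ppp1r14d, a phosphatase inhibitor, read 9.25 and 9.46, 9.88 and 9.76, and 9.02 and 8.82 (log2 -0.90, adjusted p = 0.0972). Saa1 (adjusted p = 0.0972), Fkbp5 (0.267) and Pim1 (0.267) completed the group, each with a day 12 mean on the day 6 side of its day 9 mean. The day 9 mice were Y-high and the day 12 mice Xist-high, which cannot be told apart from the day.

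Between days 6 and 12, the uncalled genes with the smallest p (each with an adjusted p of 0.245) began with Hspa1a, an inducible heat shock chaperone, at 8.53 and 7.67, 6.81 and 6.96, and 6.73 and 6.74. Both day 6 mice lay above all later mice, mouse 1 furthest. Slc46a1, the folate transporter of the proximal gut, read 7.95 and 7.75, 8.49 and 8.40, and 8.74 and 8.79. Adh4, an alcohol and retinol dehydrogenase, read 5.83 and 5.80, 5.75 and 6.59, and 7.16 and 7.03, and the cation channel gene Mcoln3 5.38 and 5.20, 5.54 and 5.53, and 6.02 and 5.91. All 3 had both day 12 mice above every earlier mouse.

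No member of the other lists was called between any 2 days in WT. Heat shock genes were high in mouse 1 of day 6 (list mean 0.48, against 0.09 in mouse 2), and 9 of 10 had both day 9 arrays below both day 6 arrays (16.7% of all genes). Hsph1, a co-chaperone, read 10.03 and 9.16, 8.25 and 8.29, and 8.83 and 8.66. Of 15 cholesterol synthesis genes, 11 had both day 12 arrays below both day 6 arrays (19.7% of all genes), with a median difference of -0.39; squalene epoxidase (Sqle) read 8.95 and 9.21, 9.22 and 8.71, and 8.75 and 8.25, with mouse 2 of day 12 the lowest. Of 15 tuft cell genes, 9 had both day 12 arrays above both day 6 arrays (22.4%), and Rgs13, a G protein regulator, read 6.02 and 6.02, 6.43 and 6.78, and 6.96 and 7.15, with no overlap between days.

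Clock and fasting-linked genes differed between mice of one day as well as between days. Dbp, an output factor of the circadian clock, read 7.95 and 8.77, 7.65 and 8.92, and 9.54 and 9.15, and the core clock activator Arntl 8.26 and 7.91, 8.38 and 7.98, and 7.67 and 7.85. The mice lowest in Dbp on days 6 and 9 were highest in Arntl. Angptl4, an inhibitor of lipoprotein lipase raised by fasting, read 7.93 and 8.50, 6.89 and 7.19, and 6.75 and 7.22, and Pdk4, which blocks pyruvate use in fasting, 6.73 and 7.49, 5.74 and 6.30, and 6.34 and 6.75. Mouse 2 was the higher one on each day for both. The labels give neither the hour of collection nor the feeding state.

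Cep43, the gene removed in the KO mice, was steady in WT, at 6.96 and 6.90 at day 6, 6.96 and 7.05 at day 9, and 6.83 and 7.04 at day 12. Its KO signals were 6.69 and 6.56, 6.60 and 6.63, and 6.97 and 6.74, so that the genotypes overlapped at day 12. Whether the probe set reads the deleted part is unknown here, so this is not a check of the labels.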

How the data were processed

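Whole-tissue RNA was labelled with biotin and read on Affymetrix arrays (Mouse Gene 1.0 ST), as the protocols in the labels say. The values deposited by the authors are log2 signals of 35556 probe sets on 12 arrays. Per the submitters' processing notes limma and R 3.5 were used, in roles left unstated. How signals were corrected for background, summarised and normalised is not given in the sources used here. Gene names came from the platform's annotation: 21789 had 1 gene symbol, 1621 several and 12146 are unnamed here. The gene table held 19938 genes (999 with several probe sets, of which the brightest on average over all arrays stood for the gene). No 2 arrays were identical.

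Means per group of 2 were fitted over all 12 arrays with limma 3.58.1 in R 4.3.3 (6 residual and 5.23 prior degrees of freedom), with no filter. Tests were two-sided with Benjamini-Hochberg adjustment over all genes, and the fit was tested on simulated data. Array number limits the precision. The p-values set a difference against a spread between mice that was pooled over the WT and KO groups, so WT calls depend on KO mice too. Sets of genes came from 37 lists (482 of 530 entries measured).

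The members, lists and rules were chosen with earlier results of these data known. Genes named were, per comparison, up to 8 called genes each way whose days did not overlap, or the 5 with the smallest p where fewer than 5 were called; per day, the 6 genes with the largest difference between mice, and the 10 largest over all days; the 5 steadiest bright genes; and the first 4 members of each list. Not all of these are printed. Other genes and further list members were picked after their values were seen. Alternatives were another normalisation, centring, a filter on dim genes, the mean over probe sets, WT arrays alone, a replicate block, a trend in the prior, array weights, covariates and leaving out each array.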

Additional observations from a re-analysis of the deposited data

Results flagged for a closer look

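The mean of the drug metabolism list in mouse 1 of day 9, -0.61, stood apart from the other 5 WT mice, with a gap of 0.674 of the whole range. The mean of the fat list in mouse 1 of day 6, 0.35, did so as well, with a gap of 0.811 of the range. Carbonic anhydrase Car3, a fat and muscle enzyme, read 6.65 in that mouse and 4.58 to 4.83 in the others, while Adipoq, the defining hormone of fat cells, was dim in all 6, at 4.31 in that mouse and 3.92 to 4.08 in the others. Chance flags about 1 in 20 groups. The 37 lists except the sex-linked one were looked at, and so was each gene named for a comparison of days.

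The day differences of the named genes were compared with those of the KO mice in limma's interaction contrasts. The overall interaction was called for 3685 genes (18.5%). The genes were picked for their WT difference, which is a term of the interaction, so these tests are not independent evidence. At day 6 both KO mice were Y-high, whereas the WT mice were a Y-high and an Xist-high one. Contrasts with day 6 thus also differ in sex-linked signal between genotypes, and its part in these genes was not tested. From day 6 to day 9, the KO difference minus the WT difference (log2) was -4.00 for Ido1 (adjusted p = 0.000251), -3.15 for Tnfsf10 (6.62e-06), -2.07 for Dio1 (1.03e-05), -1.98 for Pim1 (1.61e-05), -1.39 for H2-Aa (0.00736), -1.22 for H2-DMa (0.0113), -1.22 for Saa1 (0.0091) and -0.88 for Myzap (0.000829). It was 2.37 for Gsta4 (adjusted p = 0.000389), 1.69 for Pgap1 (0.000402), 1.55 for Fkbp5 (0.00149) and 1.02 for Phlda2 (0.00302). In KO, H2-Aa read 9.68 and 10.09 at day 6 and 9.80 and 9.84 at day 9. From day 9 to day 12 it was 1.46 for Slc34a2 (adjusted p = 0.0174), 1.38 for Saa1 (0.011) and 0.64 for Pim1 (0.0294).

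From day 6 to day 12 the difference between genotypes was 1.94 for Slc10a2 (adjusted p = 0.000293), 1.52 for Hspa1a (0.00632), -1.66 for Adh4 (0.00319), -1.48 for Slc46a1 (0.000648) and -1.06 for Mcoln3 (0.000848). KO signals of Slc10a2 were 9.29 and 9.10 at day 6, 10.57 and 10.45 at day 9 and 9.22 and 9.33 at day 12, above every WT mouse.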

How the results depend on the processing

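No named gene reversed its direction under any alternative run, but the counts below are not always of the same genes. With WT arrays alone, the 2 genes called by the F test shared 0 with the full fit. Day 12 against day 6 then called 1 gene, which was higher at day 12 and was not Slc10a2. The F test over WT days called 1 gene, in place of 4, after quantile normalisation, after centring on array medians, without dim genes or with the smooth muscle mean as a covariate, 2 with WT arrays alone and 10 with array weights. Day 9 against day 6 called 7 without dim genes and 25 with array weights, in place of 12, 0 with the smooth muscle covariate and 2 with the Y-linked covariate, which was chosen after seeing the data. Day 12 against day 9 called 4 with array weights in place of 0. Day 12 against day 6 called 3 with the Y-linked covariate and 2 with the B cell and follicle covariate, both chosen after seeing the data, in place of 1. The interaction called 1659 genes with the smooth muscle covariate in place of 3685. The cause was not tested. Leaving out 1 array at a time gave 0 to 8 calls in the F test, 0 to 18 for day 9 against day 6, 0 to 5 for day 12 against day 9, 1 to 8 for day 12 against day 6 and 2191 to 4667 for the interaction.

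Same-numbered mice deviated little together over all genes. Of 15 pairs of groups, 4 had a correlation of deviations over 0.1 (range -0.152 to 0.347), with the highest between KO days 9 and 12. A correlation over all genes cannot exclude that the numbers pair some mice. In WT, all 16 measured B cell and follicle genes were higher in mouse 2 on days 6 and 12. With the replicate number as a block the F test called 0 genes, day 9 against day 6 called 4, and the other counts stayed within 1.5 times.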

Other observations

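A group of genes lay at one level in the day 6 mice and at another in all 4 later WT mice, and none of them was called. Adenosine deaminase (Ada), which breaks down adenosine, read 9.88 and 9.62 at day 6, 10.94 and 10.87 at day 9, and 11.15 and 11.12 at day 12. The fatty acid translocase Cd36 read 7.40 and 7.14, 8.39 and 8.11, and 8.19 and 7.88, and the iron exporter Slc40a1 6.09 and 6.37, 6.98 and 7.04, and 6.98 and 6.84. All 3 had both day 6 mice below every later mouse. They were picked after their values were seen.

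The ubiquitin-like gene Ubd, an interferon-responsive gene, read 5.47 and 6.41 at day 6, 8.01 and 7.50 at day 9, and 6.89 and 6.75 at day 12, and the gasdermin gene Gsdmc4 7.38 and 6.25, 8.50 and 8.51, and 7.71 and 7.70. In both the day 9 mice were the highest and the day 12 mice lay between the other days. Scd2, which desaturates fatty acids, read 10.84 and 10.40, 11.11 and 10.80, and 10.11 and 9.25, with both day 12 mice lowest.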
